A study of Mus musculus with 20 samples.

Results

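The 8 genes described here encode effector proteins of neutrophils and other phagocytes: S100a8, Fpr2, Chil3, Slc11a1, Mmp9, Cybb, Camp and Ltf. They were chosen by name, and all 8 were found among the 770 genes measured. Signals were compared across 20 mouse tumours in 4 groups of 5, each group with its own antibody treatment. The tumours grew from MMC cells, a mammary carcinoma line of one origin, placed under the skin of mice aged 6 to 8 weeks (FVB/N-TgN(MMTV-Erbb2)NK1Mul/J). In this strain the mammary tumour virus promoter drives Erbb2, chiefly in mammary epithelium, and all 4 groups, the controls included, share the strain and the implanted line. Mice were allocated by tumour size at 200 to 500 mm3, each agent was injected intraperitoneally at a dose of 5 mg/kg, and tumours date from day 1. The control group received an isotype control antibody. The isotype ISAC group received an isotype antibody joined to T785, an agonist of the RNA-sensing receptors TLR7 and TLR8. The anti-rHER2 group received an unconjugated antibody against rat HER2, and the anti-rHER2 ISAC group the same kind of antibody joined to T785. ISAC stands for immune-stimulating antibody conjugate.

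Neutrophils are short-lived white blood cells that leave the blood and follow chemical gradients into injured or inflamed tissue. They carry antimicrobial proteins in granules, packed at successive stages of their growth in the marrow, and they engulf particles and attack them with reactive oxygen. Monocytes and macrophages share much of this equipment, including the oxidase and the phagosomal transporter, so no gene of the 8 belongs to neutrophils alone in every setting. S100a8 encodes one chain of calprotectin, a calcium- and metal-binding protein that fills the neutrophil cytoplasm. Fpr2 encodes a receptor for formylated peptides and other attractants, and Mmp9 a secreted gelatinase. Chil3 (also called Ym1) encodes a chitinase-like lectin of mouse macrophages and neutrophils. Slc11a1 encodes a metal transporter of the phagosome membrane, and Cybb the catalytic chain of the phagocyte NADPH oxidase. Camp and Ltf encode a cathelicidin and lactoferrin, which neutrophil precursors store in granules.

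The deposited value is a normalized nCounter signal, proportional to counted probe molecules, and was never below 1. Whole counts could be recovered from it, 271793 to 508433 per tumour. The epithelial marker Epcam lay between 4390 and 7192 in every tumour, and the summed signal of the 4 epithelial markers measured was 7030 to 10652. The median signal of a tumour was 48.9 to 62.6 in the isotype antibody group, 48.8 to 62.4 in the isotype ISAC group, 62.1 to 75.5 after anti-rHER2 and 75.8 to 105.8 after its conjugate. The median log2 difference over all 770 genes was therefore above 0 for the anti-rHER2 ISAC, at 0.36 relative to the isotype antibody, 0.16 relative to anti-rHER2 and 0.29 relative to the isotype ISAC. It was 0.20 for anti-rHER2 against the isotype antibody, 0.18 for anti-rHER2 against the isotype ISAC and 0.03 between the control groups. Apart from the cell type markers, results that depend on this shift are named below with their value when tumours were scaled differently. Whether it reflects RNA input, tumour make-up or normalization was not tested. More cells of a type and more RNA per cell cannot be told apart in RNA from whole tumours.

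Promoter sequence of 7 of the 8 genes, S100a8, Fpr2, Chil3, Slc11a1, Cybb, Camp and Ltf, was available from RefSeq for GRCm38.p6, as 250 bases before to 50 after the start of the gene. It is reference sequence of another mouse strain, not read from these tumours. The sequences were searched on both strands for the core GAGGAA, bound by the myeloid factor PU.1, and for the C/EBP motif TTNNGCAA. A core on the opposite strand reads TTCCTC. These motifs do not overlap in the 7 sequences. The PU.1 core was present in 5 of the 7, namely S100a8, Fpr2, Slc11a1, Cybb and Ltf, against 28.28% of all 32851 promoters of the table and 34.82% of the 695 promoters of genes on the panel. The C/EBP motif was present in 1 of the 7, Ltf, against 10.8% and 12.81%. A match describes letters and is not a binding site. The 4 sequences below are the 3 genes with the clearest response to the conjugate, S100a8, Fpr2 and Slc11a1, and Ltf, which holds both motifs and stayed near the detection floor. Each is written in the direction of its gene with the motifs in capitals.
S100a8: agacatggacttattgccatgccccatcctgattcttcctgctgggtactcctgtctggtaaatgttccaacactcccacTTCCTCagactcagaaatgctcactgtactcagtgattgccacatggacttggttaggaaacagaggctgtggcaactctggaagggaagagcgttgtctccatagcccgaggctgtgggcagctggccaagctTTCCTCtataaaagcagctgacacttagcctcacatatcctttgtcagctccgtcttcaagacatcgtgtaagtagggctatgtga
Fpr2: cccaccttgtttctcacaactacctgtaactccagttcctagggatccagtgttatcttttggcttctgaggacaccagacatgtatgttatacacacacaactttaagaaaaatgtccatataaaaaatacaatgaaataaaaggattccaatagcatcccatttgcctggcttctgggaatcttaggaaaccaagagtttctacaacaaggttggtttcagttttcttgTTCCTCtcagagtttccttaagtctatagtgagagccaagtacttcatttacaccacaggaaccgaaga
Slc11a1: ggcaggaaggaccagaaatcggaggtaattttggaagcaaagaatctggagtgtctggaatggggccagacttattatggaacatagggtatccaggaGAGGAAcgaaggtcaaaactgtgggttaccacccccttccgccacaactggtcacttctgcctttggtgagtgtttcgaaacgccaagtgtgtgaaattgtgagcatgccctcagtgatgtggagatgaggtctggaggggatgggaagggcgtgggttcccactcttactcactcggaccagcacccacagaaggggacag
Ltf: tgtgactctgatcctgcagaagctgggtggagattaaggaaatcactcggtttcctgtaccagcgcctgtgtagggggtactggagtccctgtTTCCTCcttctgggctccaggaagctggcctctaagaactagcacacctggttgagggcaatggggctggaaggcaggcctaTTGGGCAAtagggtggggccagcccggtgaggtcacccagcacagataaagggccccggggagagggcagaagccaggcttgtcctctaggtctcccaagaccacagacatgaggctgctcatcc
The S100a8 sequence is chr3:90668821-90669120 on the plus strand and holds the core on the opposite strand, its first base at positions -170 and -36 from the start. Fpr2 is chr17:17887574-17887873, plus strand, with 1 core at -19. Slc11a1 is chr1:74374953-74375252, plus strand, with the core at -152. Ltf is chr9:111019042-111019341, plus strand, with the PU.1 core at -157 and the C/EBP motif TTGGGCAA at -75. The promoter of Cybb, not printed, held the core at position 10, after the start.

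S100a8 had the largest log2 difference of all 770 genes between the anti-rHER2 ISAC and the isotype antibody, and the order of the 4 groups was steep. With the isotype antibody the signals of the 5 tumours were 41.4, 22.0, 25.9, 37.2 and 25.2. With the isotype ISAC they were 46.9, 44.3, 23.9, 49.7 and 30.6. The control groups overlapped in part, as isotype ISAC tumours 3 and 5 lay within the range of the isotype antibody tumours and the other 3 above it. With anti-rHER2 the signals were 162, 158, 71.0, 131 and 174, and with the anti-rHER2 ISAC they were 1335, 574.5, 1783, 1349 and 1085. Every anti-rHER2 tumour lay above every control tumour, and every anti-rHER2 ISAC tumour above every anti-rHER2 tumour. Such full separation, here and below, was not limited to these genes. The conjugate tumours all lay above the isotype antibody tumours in 28.57% of the 770 genes. For the isotype ISAC the share was 24.68%, and for anti-rHER2 12.47%. The anti-rHER2 tumours all lay above the isotype antibody tumours in 9.22% of genes, and above the isotype ISAC tumours in 6.49%. The group means were 30.4 ± 8.43, 39.1 ± 11.2, 139 ± 41.3 and 1225 ± 442 (SD, n = 5 each), so that the conjugate stood 40.4-fold above the isotype antibody, 31.4-fold above the isotype ISAC and 8.80-fold above the unconjugated antibody. On the log2(signal + 1) scale S100a8 rose by 5.24 ± 0.30 (SE) against the isotype antibody, with an adjusted p of 4.2e-10 by limma. Against anti-rHER2 it rose by 3.10 ± 0.30 (adjusted p = 3.5e-07), and against the isotype ISAC by 4.89 (adjusted p = 7.6e-10, limma). Unconjugated anti-rHER2 alone raised it by 2.14 ± 0.30 over the isotype antibody (adjusted p = 4.5e-04, limma). These 4 calls were kept under each scaling of the tumours and with any tumour left out.

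**Figure D1:**
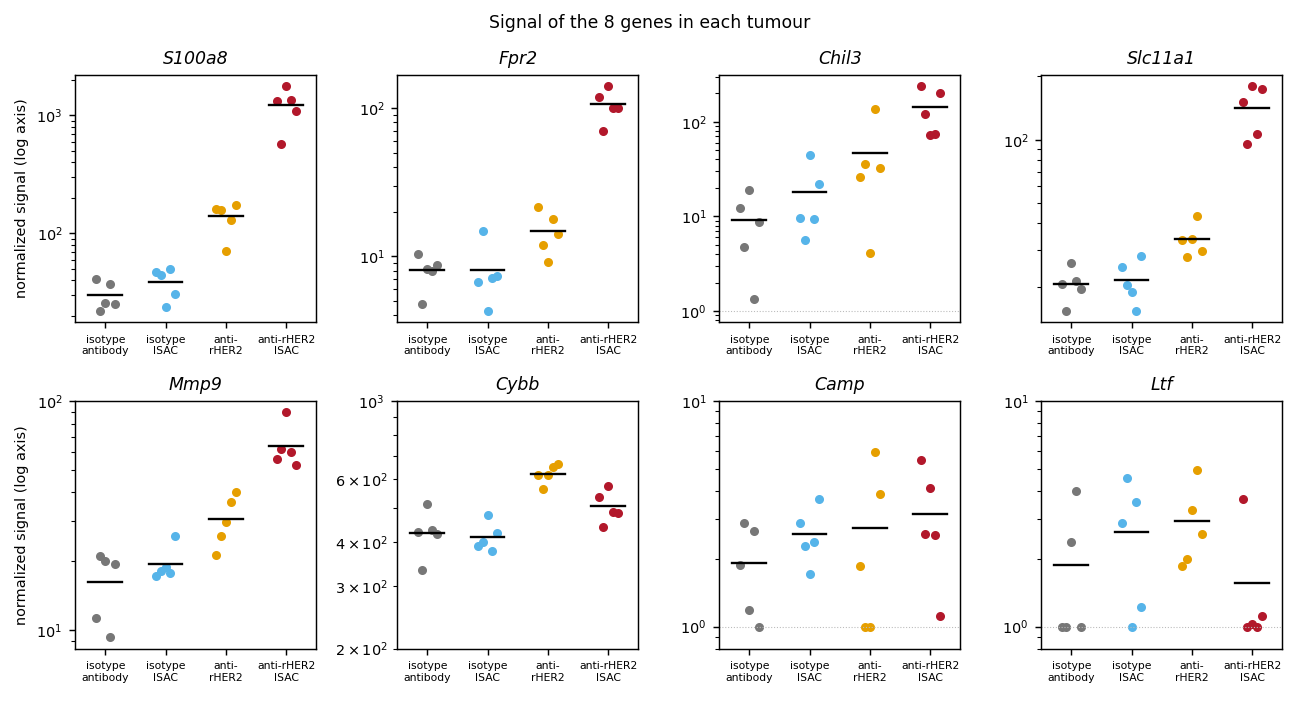
Normalized signal (log axes, with their own range for each gene) of the 8 genes in each of the 20 tumours, by treatment group; points are tumours and the black bar is the group mean. S100a8, Fpr2, Slc11a1 and Mmp9 are highest in all 5 anti-rHER2 ISAC tumours, Cybb is highest with unconjugated anti-rHER2, and Camp and Ltf lie near the floor of 1 (dotted line) in every group. Over the 770 genes, the conjugate tumours all lay above the anti-rHER2 tumours in 12.47% and above the isotype antibody tumours in 28.57%.

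Fpr2, the formyl peptide receptor, was close to the floor in the controls and separated the conjugate from all other treatments. Its signals were 10.4, 4.79, 8.25, 7.98 and 8.74 with the isotype antibody and 6.70, 14.8, 4.27, 7.09 and 7.34 with the isotype ISAC. With anti-rHER2 they were 21.4, 11.9, 9.08, 17.8 and 14.2, a range that overlapped both control groups. With the anti-rHER2 ISAC they were 118, 70.2, 141, 100.1 and 99.7, all above the highest tumour of any other group. Means were 8.02 ± 2.03, 8.03 ± 3.96, 14.9 ± 4.84 and 106 ± 26.2 (SD, n = 5). Fpr2 rose by 3.56 ± 0.27 on the log2 scale against the isotype antibody (adjusted p = 5.2e-09, limma) and by 2.77 ± 0.27 against anti-rHER2 (adjusted p = 3.5e-07, limma). The difference between anti-rHER2 and the isotype antibody, 0.79 ± 0.27, did not pass (adjusted p = 0.0677, limma). It passed without anti-rHER2 tumour 3 (0.94, adjusted p = 0.0458) or isotype ISAC tumour 2 (0.79, adjusted p = 0.0456).

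Slc11a1, the phagosomal metal transporter, followed the same order with less spread. Signals were 20.7, 15.3, 25.9, 21.3 and 19.4 with the isotype antibody, and 24.9, 20.4, 18.8, 15.4 and 28.1 with the isotype ISAC. With anti-rHER2 they were 33.5, 27.8, 33.9, 43.4 and 29.7, all above the isotype antibody tumours, though the lowest fell under the highest isotype ISAC tumour. With the anti-rHER2 ISAC they were 151, 95.04, 181, 106 and 174, with no overlap with any group. The conjugate mean of 141 ± 38.9 was 6.88-fold that of the isotype antibody, 20.5 ± 3.81, and 4.20-fold that of anti-rHER2, 33.6 ± 6.02 (SD, n = 5). The log2 rise was 2.70 ± 0.20 against the isotype antibody (adjusted p = 3.3e-09) and 2.01 ± 0.20 against anti-rHER2 (adjusted p = 3.7e-07, limma). The smaller rise with anti-rHER2 alone, 0.69 ± 0.20 (adjusted p = 0.0388, limma), was not stable. It no longer passed under any of the 3 other scalings (0.40 to 0.49). Nor did it pass when any of isotype antibody tumours 1, 2, 4 and 5 or anti-rHER2 tumours 1, 3, 4 and 5 was left out (adjusted p 0.0521 to 0.117, limma).

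Mmp9, the gelatinase, changed least of the 5 genes that rose with the conjugate. Its signals were 11.3, 21.1, 20.0, 9.31 and 19.4 with the isotype antibody and 17.2, 18.2, 18.8, 17.7 and 25.7 with the isotype ISAC. They were 21.4, 25.8, 29.7, 36.5 and 40.0 with anti-rHER2, and 55.8, 61.7, 89.8, 60.2 and 52.7 with the anti-rHER2 ISAC. The conjugate tumours again lay above all 15 others, and the anti-rHER2 tumours above all 5 with the isotype antibody. The panel shares of such separation are given with S100a8. Means were 16.2 ± 5.49, 19.5 ± 3.495, 30.7 ± 7.61 and 64.0 ± 14.8 (SD, n = 5). The log2 rise was 1.96 ± 0.22 against the isotype antibody (adjusted p = 1.1e-06), and 1.05 ± 0.22 against anti-rHER2 (adjusted p = 0.00203, limma). With quantile normalization the latter was 0.61 and did not pass (adjusted p = 0.0773, limma). Mmp9 was also higher with anti-rHER2 than with the isotype antibody, by 0.91 ± 0.22 (adjusted p = 0.021, limma). That call was lost under each other scaling (0.605 to 0.719). It was also lost without isotype antibody tumour 4, anti-rHER2 tumour 4 or anti-rHER2 tumour 5 (0.74 to 0.84, adjusted p 0.0516 to 0.0547, limma).

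Chil3, the chitinase-like lectin, rose with the conjugate but varied more between tumours than the other genes that rose. Signals were 12.2, 4.79, 18.9, 1.33 and 8.74 with the isotype antibody and 9.57, 5.68, 44.5, 9.46 and 22.0 with the isotype ISAC. With anti-rHER2 they were 26.1, 35.7, 4.13, 136 and 32.3, and with the anti-rHER2 ISAC 240, 122, 72.2, 73.8 and 203. The anti-rHER2 tumours spanned a 33.0-fold range and 1 of them, tumour 4, exceeded 3 of the 5 conjugate tumours. Means were 9.19 ± 6.78, 18.2 ± 15.9, 46.9 ± 51.4 and 142 ± 76.3 (SD, n = 5). Against the isotype antibody Chil3 rose by 3.98 ± 0.73 with the conjugate (adjusted p = 2.3e-04, limma), and all 5 conjugate tumours lay above all controls. Against anti-rHER2 the rise was 2.10 ± 0.73 with an adjusted p of 0.0468 by limma. This call did not hold under any of the 3 other scalings (1.67 to 1.90). It was also lost in 14 of the 20 fits that left out 1 tumour (1.46 to 2.30, adjusted p 0.0519 to 0.146, limma), the exceptions being isotype antibody tumours 3 and 4, isotype ISAC tumours 2 and 3, anti-rHER2 tumour 4 and anti-rHER2 ISAC tumour 4. Anti-rHER2 against the isotype antibody gave 1.88 ± 0.73 and did not pass (adjusted p = 0.117, limma), except without anti-rHER2 tumour 3 (2.51, adjusted p = 0.0303, limma).

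Cybb, the catalytic chain of the oxidase, was highest with the unconjugated antibody and not with the conjugate. Its signals were 425, 333, 511, 433 and 420 with the isotype antibody and 388, 400, 477, 376 and 424 with the isotype ISAC. With anti-rHER2 they were 619, 564, 617, 650 and 665, above all 10 control tumours. With the anti-rHER2 ISAC they were 536, 441, 577, 487 and 483, a range that touched both the controls and the anti-rHER2 tumours. Means were 425 ± 63.2, 413 ± 40.0, 623 ± 38.8 and 505 ± 52.5 (SD, n = 5). Cybb rose by 0.56 ± 0.11 with anti-rHER2 against the isotype antibody (adjusted p = 0.0048, limma), a call lost when tumours were scaled to equal medians (0.28, adjusted p = 0.114). The conjugate against anti-rHER2 gave -0.31 ± 0.11, just short of the threshold (adjusted p = 0.052, limma; 95% interval -0.54 to -0.08). Under each of the 3 other scalings this difference passed as lower, at -0.74 to -0.51, and it also passed without isotype antibody tumour 2 or 3, isotype ISAC tumour 3 or anti-rHER2 ISAC tumour 3 (-0.36 to -0.31, adjusted p 0.0323 to 0.0492, limma). Against the isotype ISAC the conjugate was higher by 0.29 ± 0.11 (adjusted p = 0.0451, limma). That small rise turned sign under all 3 other scalings and was lost in 14 of 20 fits without 1 tumour (0.24 to 0.30), all but those without isotype antibody tumour 2 or 3, isotype ISAC tumour 3, anti-rHER2 tumour 2 or 5, or anti-rHER2 ISAC tumour 2. Against the isotype antibody the conjugate gave 0.26 ± 0.11 (adjusted p = 0.0694, limma). It passed without isotype antibody tumour 3 or anti-rHER2 ISAC tumour 2 (0.33 and 0.30, adjusted p 0.0222 and 0.0386), and it too turned sign under the other scalings.

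Camp and Ltf, the granule proteins of neutrophil precursors, were near the floor in all 20 tumours. Camp lay between 1 and 5.92, which corresponds to at most 6 counts in a tumour. Its counts summed over 5 tumours were at most 9, 12, 13 and 17 in the isotype antibody, isotype ISAC, anti-rHER2 and anti-rHER2 ISAC groups, since 0 and 1 count cannot be told apart at the floor. Ltf lay between 1 and 4.93, or at most 5 counts, with sums of at most 8, 12, 15 and 8. No group stood apart from the others for either gene. The conjugate against the isotype antibody gave 0.47 ± 0.34 for Camp (adjusted p = 0.291) and -0.15 ± 0.34 for Ltf (adjusted p = 0.732, limma), with 95% intervals of -0.25 to 1.18 and -0.85 to 0.55. A change of these genes was not detectable at this depth, and these log2 values understate changes so close to the floor.

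**Figure D2:**
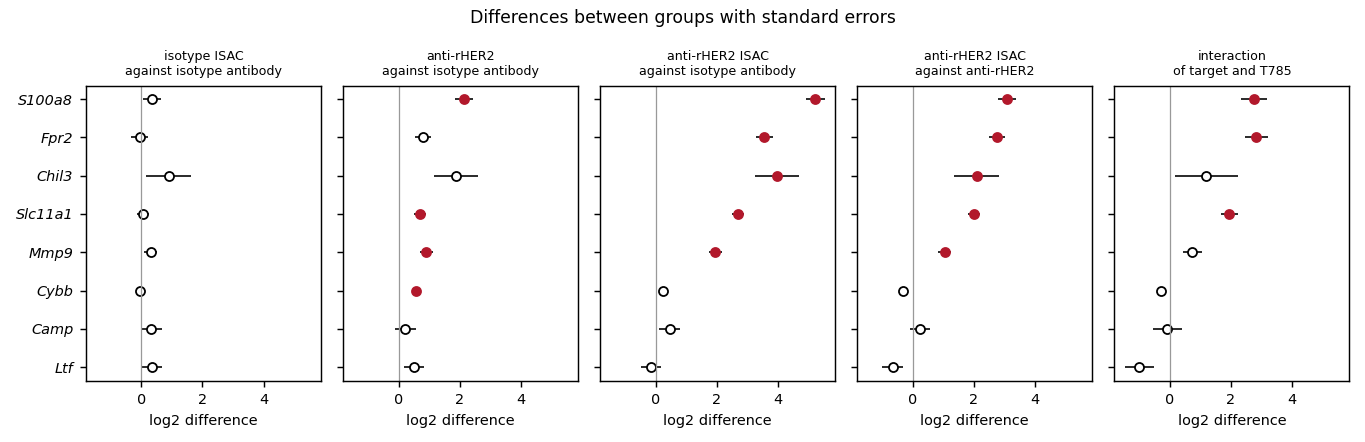
Log2 differences between groups with standard errors for the 8 genes, on log2(signal + 1), from the limma fit over 20 tumours; filled points passed an adjusted p of 0.05 and open points did not. The panels show no filled point for the isotype ISAC, 4 for anti-rHER2, 5 for the anti-rHER2 ISAC against either the isotype antibody or anti-rHER2, and 3 for the interaction.

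Counted over the 8 genes, the conjugate raised 5 and lowered 0 against the isotype antibody, namely S100a8, Fpr2, Chil3, Slc11a1 and Mmp9, beside 39.9% of the 770 genes called higher and 4.68% called lower by limma at an adjusted p below 0.05. At an unadjusted p below 0.05 these counts were 6 higher and 0 lower, where 49.74% of all genes differed. Against anti-rHER2 the same 5 genes were higher and 0 lower, where 19.6% of all genes were higher and 2.99% lower. Against the isotype ISAC 6 were higher, the 5 and Cybb, and 0 lower, beside 36.0% and 3.90% of all genes. The response to anti-rHER2 alone was narrower across the panel. Against the isotype antibody it raised S100a8, Slc11a1, Mmp9 and Cybb, 4 of the 8, and lowered 0, where 8.83% of all genes were higher and 0.260% lower. The count of 70 fell to between 22 and 43 when isotype antibody tumour 1, 2 or 4 or anti-rHER2 tumour 1, 4 or 5 was left out. Against the isotype ISAC it raised S100a8 and Cybb, 2 of the 8, and lowered 0, where 5.06% were higher and 0.649% lower. The count of 44 fell to between 17 and 22 without isotype ISAC tumour 1 or 4 or anti-rHER2 tumour 1, 4 or 5. S100a8 gave 1.79 (adjusted p = 0.002) and Cybb 0.59 (adjusted p = 0.00402, limma). Fpr2 (0.85), Slc11a1 (0.63), Mmp9 (0.61), Chil3 (0.98), Camp (-0.10) and Ltf (0.17) did not pass, with adjusted p of 0.0693 to 0.891. At an unadjusted p below 0.05, 1 gene of the 8 was lower against anti-rHER2, Cybb, which edgeR also called lower, 1 in the interaction, Ltf, and 0 in the other comparisons. All these comparisons share groups with each other, and the counts are not independent. The split between directions over the panel depended on the scaling. For the conjugate against the isotype antibody it was 307 higher and 36 lower as deposited. Scaled by median ratios, by quantiles or to equal medians, it became 155 and 142, 130 and 182, or 92 and 277. Against anti-rHER2 it went from 151 and 23 to 87 and 51, 80 and 121, and 61 and 188 in that order, and against the isotype ISAC from 277 and 30 to 164 and 142, 113 and 185, and 79 and 301. The same 5 genes, S100a8, Fpr2, Chil3, Slc11a1 and Mmp9, were higher against each isotype group under every scaling. With equal medians Cybb was called lower against both isotype groups (-0.47 and -0.44), and Ltf lower against the isotype ISAC (-0.93). For anti-rHER2 against the isotype antibody the split went from 68 and 2 to 22 and 12, 14 and 8, and 12 and 11, and for the interaction from 53 and 2 to 46 and 11, 41 and 25, and 36 and 47.

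The 8 genes together took 0.116% to 0.162% of a tumour's counts in the isotype antibody group and 0.120% to 0.160% in the isotype ISAC group. They took 0.215% to 0.263% after anti-rHER2 and 0.335% to 0.678% after the conjugate. Cybb and S100a8 gave most of these counts. Summed over the tumours of a group, Cybb had 1993 counts with the isotype antibody and 2665 with the conjugate, and S100a8 had 143 and 6417. The rise of the share with the conjugate thus largely repeats S100a8.

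The isotype ISAC carried T785 without binding the tumour, and it changed none of the 8 genes against the isotype antibody. The calls were 0 higher and 0 lower of 8, as they were over the panel (0% higher and 0% lower by limma, and 0 genes by edgeR). At an unadjusted p below 0.05, 47 of the 770 genes differed by limma and 43 by edgeR, and 0 of the 8. The estimates were 0.34 for S100a8 (95% interval -0.29 to 0.97), -0.06 for Fpr2 (-0.63 to 0.51) and 0.06 for Slc11a1 (-0.36 to 0.47). The interval for Cybb, -0.26 to 0.20, was the narrowest. Mmp9, Camp and Ltf gave 0.31, 0.32 and 0.34, none passing (adjusted p 0.887, 0.933 and 0.928, limma). The interval for Chil3 ran from -0.64 to 2.43, so a change of several fold in Chil3 lies within it.

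The interaction asks whether T785 had another effect on the tumour-binding antibody than on the isotype antibody. It passed for 3 of the 8 genes, all higher, and 0 lower, where 6.88% of all genes were higher and 0.260% lower. Fpr2 had an interaction of 2.83 ± 0.38 (adjusted p = 5.1e-05), S100a8 one of 2.76 ± 0.42 (adjusted p = 1.9e-04) and Slc11a1 one of 1.95 ± 0.28 (adjusted p = 8.7e-05, limma). These 3 calls were kept under each scaling and with any 1 tumour left out. Mmp9 gave 0.74 ± 0.31 (adjusted p = 0.176, limma) and Chil3 1.20 ± 1.04 (adjusted p = 0.599, limma), and neither passed. The value for Cybb was -0.28 ± 0.16 (adjusted p = 0.341, limma), and it passed as lower under the 3 other scalings, at -0.71 to -0.44. Ltf gave -0.995 (adjusted p = 0.24, limma) from counts of at most 5 in a tumour, and Camp gave -0.08 (adjusted p = 0.95, limma).

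**Figure D3:**
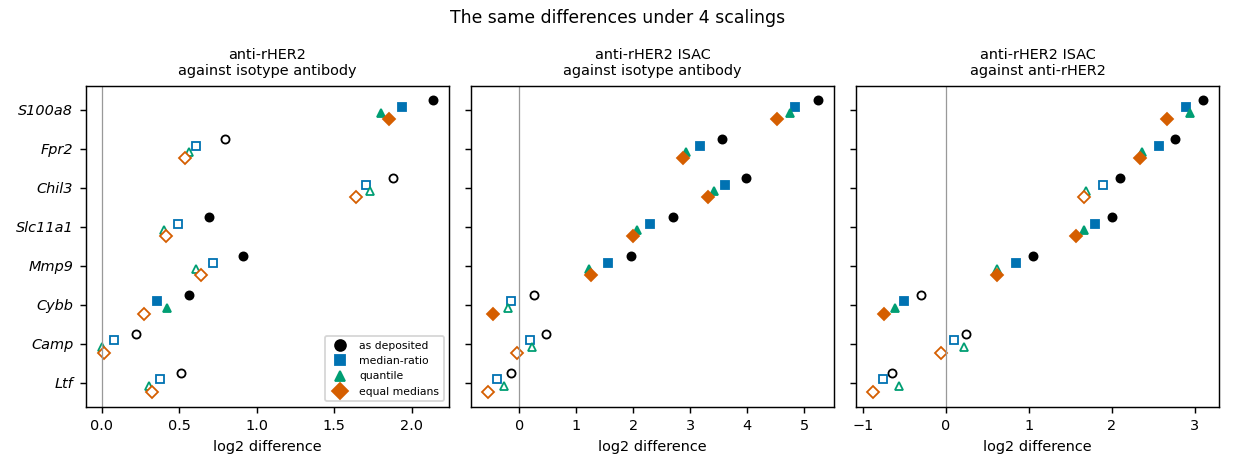
Log2 differences of the 8 genes in 3 comparisons under the deposited scaling (circles), median-ratio scaling (squares), quantile normalization (triangles) and equal medians (diamonds); filled symbols passed an adjusted p of 0.05. The S100a8 points stay filled and far from 0 in all 3 panels, while for Cybb the conjugate against anti-rHER2 is open and below 0 as deposited and filled and lower under the other 3 scalings.

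Across the 20 tumours the 8 genes fell into more than one pattern, described here by Pearson's r of log2(signal + 1) and by r of the deviations from the group means. Both are descriptions over 20 tumours that share a panel, a normalization and the 4 treatments. S100a8 and Fpr2 had an r of 0.97 over the tumours and 0.69 for the deviations, so tumours high in one within a group tended to be high in the other. Anti-rHER2 ISAC tumour 3 was the highest of its group in both genes and tumour 2 the lowest in both, and the same held for Slc11a1 and Cybb. Tumour 3 also had the highest median signal of its group over all 770 genes, 105.8, and tumour 2 the lowest, 75.8. No r was computed under the other scalings. S100a8 and Chil3 had an r of 0.77 over all tumours but -0.03 for the deviations, and S100a8 and Mmp9 had -0.22 for the deviations. Slc11a1 and Cybb had 0.61 for the deviations.

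The genes of the whole panel most like each member differed in the same way. For S100a8 they were Ifitm1, Abcg1 and Fpr2 (r 0.969, 0.968 and 0.966), and for Fpr2 they included Fcer1g and Abcg1 (0.979 and 0.971). For Slc11a1 they were Msr1, a scavenger receptor of macrophages, Il1rn and Pou2f2 (0.983, 0.980 and 0.980). Chil3 was most like Fcgr2b, Cd37 and Tnfrsf1b (0.895, 0.885 and 0.867), and Mmp9 most like Clec4a2, Cd79b and C3ar1 (0.920, 0.904 and 0.901). Cybb was most like Csf1r, the receptor for the macrophage growth factor, with an r of 0.947 over the tumours and 0.857 for the deviations, followed by Clec7a (0.923) and Axl (0.894). For Camp and Ltf no gene exceeded 0.673, and their values rest on a few counts.

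**Figure D4:**
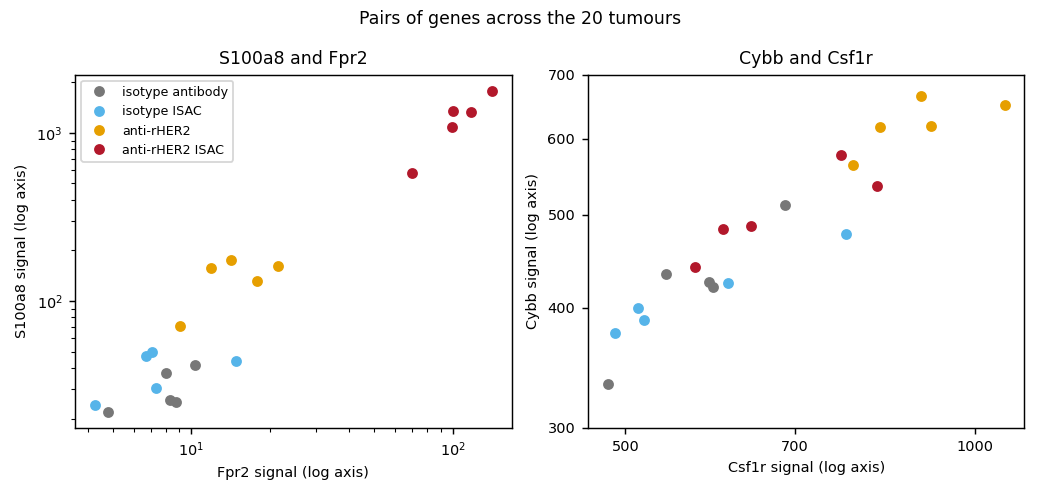
Signals of 2 pairs of genes in the 20 tumours, on log axes, coloured by treatment; each point is a tumour. The anti-rHER2 ISAC tumours lie apart at the upper right for S100a8 and Fpr2 (r = 0.97), while for Cybb and Csf1r (r = 0.947) the highest points are anti-rHER2 tumours.

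Csf1r and Clec7a, like Cybb, were highest with unconjugated anti-rHER2. Csf1r averaged 579 ± 74.8, 582 ± 118, 898 ± 105 and 683 ± 107 in the isotype antibody, isotype ISAC, anti-rHER2 and anti-rHER2 ISAC groups (SD, n = 5). It was lower with the conjugate than with anti-rHER2, by -0.40 ± 0.14 (adjusted p = 0.0472, limma), and lower under each other scaling too. That call was lost in 13 of the 20 fits without 1 tumour (adjusted p up to 0.115), all but those without isotype antibody tumour 2 or 3, isotype ISAC tumour 3 or 4, anti-rHER2 tumour 2, or anti-rHER2 ISAC tumour 1 or 3. Clec7a, which encodes the fungal glucan receptor dectin-1, averaged 49.6, 38.6, 155 and 91.5, and was lower with the conjugate than with anti-rHER2 by -0.78 ± 0.26 (adjusted p = 0.04, limma). This call was lost without anti-rHER2 tumour 1, 4 or 5 or anti-rHER2 ISAC tumour 2, 4 or 5 (adjusted p up to 0.122). Lyz2, the lysozyme of macrophages and neutrophils, averaged 2424 ± 742, 2038 ± 156, 3917 ± 984 and 1809 ± 374. It was lower with the conjugate than with anti-rHER2 by -1.11 ± 0.20 (adjusted p = 5.1e-04, limma), a call kept with any tumour left out, in the comparison where S100a8 rose by 3.10. Other macrophage genes rose in that comparison. Of 8 monocyte and macrophage markers 3 were higher and 1 lower, Csf1r, beside 19.6% and 2.99% of the panel. Msr1 averaged 139 with anti-rHER2 and 416 with the conjugate. Cd68 was higher by 0.78 to 0.94 in the fits without 1 tumour.

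Other genes of the pathway were counted from 4 lists that exclude the 8 members. Of 23 surface receptors and adhesion molecules measured, 16 were higher and 0 lower with the conjugate than with the isotype antibody, beside 39.9% and 4.68% of the panel, with a median log2 difference of 1.10 beside 0.36. Cxcr2, the receptor by which neutrophils follow CXC chemokines, had the largest rise of the list. Its signals were 1, 2.87, 2.36, 6.65 and 5.82 with the isotype antibody, 3.83, 1.14, 2.56, 7.09 and 3.67 with the isotype ISAC, 29.8, 22.8, 14.9, 28.6 and 28.4 with anti-rHER2, and 130, 71.9, 161, 116 and 87.4 with the anti-rHER2 ISAC. It rose in steps as S100a8 did, by 2.57 with anti-rHER2 (adjusted p = 4.5e-04) and 4.70 with the conjugate (adjusted p = 7.1e-09, limma), with an interaction of 2.12 (adjusted p = 0.0125). Csf3r (the receptor for granulocyte colony-stimulating factor) and Itgam (an integrin chain of myeloid cells) rose by 2.67 and 2.64 with the conjugate. Fcgr4, an activating receptor for antibody Fc, rose with the conjugate by 2.31 ± 0.15 (adjusted p = 1.1e-09) but gave -0.07 with anti-rHER2 (adjusted p = 0.832, limma), and its interaction was 2.40 (adjusted p = 7.8e-07, limma). Over the list 9 of 23 were higher with anti-rHER2 than with the isotype antibody, beside 8.83% of the panel, and 9 passed the interaction, all higher, beside 6.88%. Against anti-rHER2 the conjugate raised 12, beside 19.6% of the panel, and lowered 2, Clec7a and Lilra5, and the call of Lilra5 was lost in 14 of 20 fits without 1 tumour (all but isotype antibody tumours 1 and 4, isotype ISAC tumours 4 and 5, anti-rHER2 tumour 3 and anti-rHER2 ISAC tumour 2). The split against the isotype antibody was 12 higher and 5 lower with equal medians, 12 and 1 with median-ratio scaling, and 12 and 2 with quantile normalization.

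The other lists moved less. Of 9 further genes of the oxidase and phagosome, 3 were higher and 0 lower with the conjugate than with the isotype antibody, with a median of 0.05. That share of the list, and the 3 of 9 granule genes below, do not exceed the 39.9% of the panel. They included Syk (1.09, adjusted p = 1.9e-04, limma), which signals below Fc receptors, and Ncf4 (0.99, adjusted p = 2.1e-05, limma), an oxidase subunit whose call was lost with equal medians. Of 9 further granule and antimicrobial genes, 3 were higher, Ctsl, Ctss and S100b, and 0 lower, with a median of 0.43. Ctsl and Ctss encode lysosomal proteases found in many phagocytes, and S100b is known mainly from glia. The call of S100b was lost without isotype antibody tumour 3 or 4 or anti-rHER2 ISAC tumour 1 or 3 (adjusted p up to 0.0921). Mpo and Elane, which encode the peroxidase and elastase of the earliest granules, stayed near the floor as Camp and Ltf did, with signals of 1 to 11.8 and 1 to 6.40 over all 20 tumours. Of 17 attractants and growth factors of neutrophils, 3 were higher with the conjugate, Ccl4 (3.86), Ccl3 (3.52) and Cxcl2 (1.14), and 1 was lower, Cxcl1 (-1.12). The panel shares were 39.9% and 4.68%, so the share of this list called higher was below that of the panel. Its median of 0.35 stood beside 0.36 for the panel. Ccl3 and Ccl4 had interactions of 4.36 and 3.38 (adjusted p = 5.1e-05 for each, limma). The Cxcl2 call was lost with equal medians and with median-ratio scaling. The counts of these 3 lists turned with the scaling. Scaled to equal medians, by median ratios or by quantiles, 2, 3 and 3 oxidase and phagosome genes were higher and 4, 4 and 2 lower, with medians of -0.67, -0.35 and -0.16. For the granule list 0, 2 and 2 were higher and 3, 2 and 2 lower, and for the attractants 2, 2 and 3 were higher and 4, 3 and 3 lower. Syk kept its call under each.

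**Figure D5:**
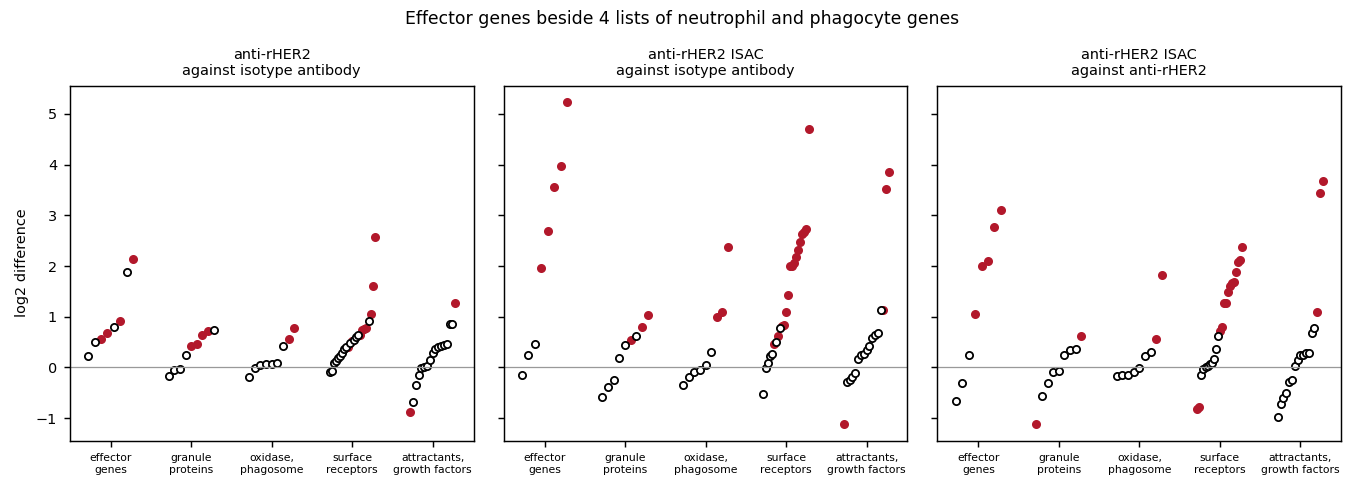
Log2 differences of the 8 effector genes and of the genes of 4 pathway lists in 3 comparisons; each point is a gene, ordered by value within its list, filled where it passed an adjusted p of 0.05. In the middle panel, the conjugate against the isotype antibody, 5 of 8 effector genes and 16 of 23 surface receptors are filled above 0, against 3 of 9 granule proteins and 3 of 9 oxidase and phagosome genes.

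Markers of neutrophils and of other cells were counted at the deposited scaling only. With the conjugate against the isotype antibody, their counts stand beside 39.9% of the panel called higher and 4.68% lower. Marker counts under the other scalings are not reported here. The 9 neutrophil markers measured, of which 5 are among the 8 genes, summed to 75.7 to 101 in the isotype antibody group, 83.1 to 108 in the isotype ISAC group, 158 to 315 after anti-rHER2 and 849 to 2365 after the conjugate. S100a8 alone had signals of 574.5 to 1783 after the conjugate, so there the sum largely repeats that gene. Of these 9, 5 were higher with the conjugate than with the isotype antibody, and Mpo, Elane, Camp and Ltf did not pass. S100a9, Ly6g, Mmp8 and Fpr1, also on this list of 13 markers, were not found by name among the 770 genes. The 8 monocyte and macrophage markers summed to 1366 to 1974, 1789 to 2045, 2305 to 3304 and 2611 to 3823 in the same order, and 5 of 8 were higher with the conjugate. Among them Cd68 averaged 243 ± 27.8 with the isotype antibody and 864 ± 143 with the conjugate, and Msr1 93.8 ± 10.49 and 416 ± 111. The 7 eosinophil and mast cell markers summed to 153 to 189 with the isotype antibody and 157 to 193 with the conjugate. Of the 5 endothelial markers 4 were higher with the conjugate, with sums of 510 to 623 and 764 to 1015 in these groups, and of the 5 fibroblast markers 3 were higher, with sums of 17353 to 22943 and 20161 to 37284. Of 6 dendritic cell markers 2 were higher and 2 lower. Of the 4 epithelial tumour cell markers 2 were higher and 0 lower. Of the T cell, B cell and NK cell markers 0 of 8, 1 of 7 and 0 of 6 were higher and 0 lower. The part of each cell type in the signals of the 8 genes was not tested.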

How the data were processed

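Per the labels' protocols, RNA of 20 tumours was measured with nCounter probes. The authors deposited a normalized signal for 770 genes, and the sources used here do not give its normalization, background treatment, runs or probe sequences. Every signal above 1 and up to 1000 was a whole multiple of 1 step per tumour (0.826 to 1.33) within 0.02 of a count, and 344 values stood at 1, all in the 12 tumours with a step below 1. The 8 tumours with a step above 1 held no value below 1 count, so 0 and 1 count cannot be told apart, and values at the floor were taken as 1 count. The step could be read from the lowest values alone in 15 tumours.

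The 8 genes and all gene lists were chosen with earlier results of these data known. The rule allows all 8 to be named in every comparison. For likeness, the 3 genes of highest r are named for each. From each list, genes called in the interaction or among the 3 largest log2 differences are named. Clec7a and Csf1r entered by likeness, Lyz2 and Cxcr2 by the lists, and Lilra5, Ctss, S100b, Mpo, Elane, Cd68 and Epcam were named after their values were seen.

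Values of log2(signal + 1) were fitted with limma 3.58.1 in R 4.3.3, with a mean per group over all 20 tumours and eBayes. Tests were 2-sided, with Benjamini-Hochberg adjustment over 770 genes, and calls were made below an adjusted p of 0.05. The labels give 5 tumours per group, and p-values measure the spread between these tumours. The labels do not say that replicate numbers pair the tumours. Over 30 same-numbered pairs, r of deviations from group means was -0.177 to 0.253 (median 0.004, beside -0.011 for other pairs). A shared run was not tested.

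Alternatives were 3 scalings (equal medians, median ratio, quantile), a pseudocount of 10, leaving out the 192 genes of lowest mean, only the groups compared, a replicate block, a trended robust prior, each tumour left out, and edgeR 4.0.16 on recovered counts. By edgeR's quasi-likelihood test 350, 187, 311, 80, 0, 55 and 62 genes were called: the conjugate against isotype antibody, anti-rHER2 and isotype ISAC; anti-rHER2 against isotype antibody; isotype ISAC against isotype antibody; anti-rHER2 against isotype ISAC; and the interaction. Some genes that the naming rule allows are not reported here. Limma was tested on simulated data with 200 of 770 genes changed. As many genes rose as fell, with no shift of the panel median, so the simulation does not bear on the scaling. For the conjugate against the isotype antibody it recovered 80% of log2 changes of 1 and 95% of those of 2, with 8 false among 183 calls. For the interaction it recovered 51% and 88%, with 5 false among 144.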

Additional observations from a re-analysis of the deposited data

Results flagged for a closer look

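T785 had a larger effect on the anti-rHER2 antibody than on the isotype antibody for 3 of the 8 genes by the interaction term of the limma fit. The differences were 2.76 for S100a8 (1.9e-04), 2.83 for Fpr2 (5.1e-05) and 1.95 for Slc11a1 (8.7e-05), on the log2 scale with adjusted p in brackets.

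Of 32 sets of 5 tumours, 4 held a highest tumour far from the others, by a gap over 0.71 of the range. Chance gives about 1 in 20 only where values are normally distributed. The gaps were taken on the signal and not on its log2 value, so that rate need not hold here. Whether the 4 sets stand out on the log2 scale was not tested. These were Chil3 in anti-rHER2 tumour 4 (136), Mmp9 in isotype ISAC tumour 5 (25.7), Mmp9 in anti-rHER2 ISAC tumour 3 (89.8) and Ltf in anti-rHER2 ISAC tumour 1 (3.66, which is 4 counts).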

How the results depend on the processing

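The calls of S100a8, Fpr2 and Slc11a1 with the anti-rHER2 ISAC were kept under the 9 alternatives and with each tumour left out. Their interactions were kept in the same fits, except that with only the groups compared no interaction was fitted. The number of the 8 genes called with anti-rHER2 against the isotype antibody, 4, fell to 1 with equal medians and to 2 with each of median-ratio and quantile scaling, and ranged from 2 to 5 with 1 tumour left out (2 without isotype antibody tumour 4, anti-rHER2 tumour 4 or anti-rHER2 tumour 5). Against the isotype ISAC it went from 2 to 1 with equal medians and to 4 of the 6 left after the lowest genes were dropped, Camp and Ltf among them. Over the panel, anti-rHER2 against the isotype antibody gave 70 calls as deposited, 23, 34 and 22 under the 3 scalings and 33 with only the groups compared. The cause of these shifts was not tested. Cybb turned sign under the 3 scalings, listed as equal medians, median ratio and quantile, to -0.47, -0.15 and -0.20 for the conjugate against the isotype antibody and -0.44, -0.078 and -0.15 against the isotype ISAC. The other reversals concern Camp and Ltf, at 6 counts or fewer. Camp gave -0.04 against the isotype antibody and -0.056 against anti-rHER2 with equal medians, and -0.38, -0.12 and -0.058 against the isotype ISAC under the 3 scalings. For anti-rHER2 against the isotype ISAC Camp gave 0.004 with a pseudocount of 10 and 0.026 by edgeR, and Ltf -0.045 with equal medians. With 1 tumour left out, values that crossed 0 ranged from -0.39 to 0.078 (Ltf, conjugate against isotype antibody), -0.039 to 0.365 (Camp, conjugate against isotype ISAC), -0.045 to 0.403 (Camp, anti-rHER2 against isotype antibody), -0.36 to 0.083 and -0.018 to 0.35 (Camp and Ltf, anti-rHER2 against isotype ISAC) and -0.26 to 0.19 (Camp, interaction). For the isotype ISAC against the isotype antibody they were -0.29 to 0.11 (Fpr2), -0.045 to 0.162 (Slc11a1) and -0.12 to 0.038 (Cybb). The labels do not call for a replicate block, and 7 of 20 tumours were closest to their own number. With that block, 6, 5, 6, 4, 0, 2 and 3 genes were called in the order given for edgeR. In that fit Chil3 against anti-rHER2 was lost (adjusted p = 0.0773), and Cybb passed against the isotype antibody (0.0348) and, as lower, against anti-rHER2 (0.0278). With only the groups compared, Chil3 against anti-rHER2 (0.0787), Cybb against the isotype ISAC (0.0717) and Mmp9 with anti-rHER2 (0.0684) did not pass. Limits are the 5 tumours per group, the single day, the unstated normalization and the few counts behind Camp and Ltf.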
